A study of Mus musculus with 20 samples.

Results

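Sox2 and its distal control region were described here as the ATAC-seq peaks of 20 mouse libraries between positions 34600000 and 34780000 of chromosome 3 on mm10, a window of 180 kb with the single-exon Sox2 gene at 34650405 to 34652461 on the plus strand. The 202 peaks in this window, of 1582423 peaks in all, merged where they overlapped into 46 regions, of 335858 regions in the whole series. The window was set by position, with earlier results of these data known. A region counts as open wherever the library in question has a peak overlapping it, and each is named here by the distance of its centre from the Sox2 start in kb, with plus for downstream.

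ATAC-seq reads out DNA that the Tn5 transposase can reach. The libraries came from mouse embryonic fibroblasts (MEFs, 1 library), from embryonic stem cells (ESCs, 3 libraries) and from MEFs sampled on 8 days, from day 0 to day 12, after transduction with Nanog+Oct4 or with NanogN70+Oct4 (1 library for each day and path). NanogN70, called NanogBiD in the study, is full-length NANOG that carries at its N-terminus the part of SS18 that binds BRG1, the ATPase of the BAF remodeling complex. The study followed both paths to learn how this fusion alters the opening and closing of chromatin on the way to pluripotency. The MEFs were a mixed population from mid-gestation embryos of Oct4-GFP (OG2) males crossed to 129 females, and the factors were delivered by pMXs retroviruses, so that every time course library, day 0 included, held transduced cells. Cells were kept in iCD3 medium and moved on day 7 to the N2B27 medium with 2i and LIF that was also used for the ESCs, which were derived from OG2 embryos. The source field of the ESC samples names MEFs, and they were grouped by their titles. Sox2 itself was in neither vector pair.

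SOX2 is an HMG-box transcription factor that pairs with OCT4 on DNA and is essential for the pluripotent state. Its gene is flanked by the short enhancers SRR1, upstream, and SRR2, downstream, and in mouse ESCs its expression depends on a cluster of enhancers more than 100 kb downstream, the Sox2 control region. In neural progenitors Sox2 is also expressed, from enhancers that are largely different. The gene lies within Sox2ot, a long noncoding RNA on the same strand.

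The sequences of 1 promoter and 6 open regions are given on the plus strand of GRCm38, the assembly behind mm10. The promoter is the stretch before the RefSeq start of Sox2 and is shown because its peak was the only one of the 46 present in all 20 libraries, as 4.23% of all regions were. The others are 60 bases on either side of the highest summit of the +3.7 kb region (at the position of SRR2), of the +18.2 kb region, of the +94.9 kb, +107.5 kb and +110.9 kb regions (the tallest ESC peaks of the far downstream part) and of the +16 kb region, which was open late in the time course and in neither MEFs nor ESCs. Capitals mark the core letters CATTGT or CTTTGT for SOX proteins and ATGCAAA for OCT proteins on either strand.
Sox2 promoter (chr3:34649745-34649994): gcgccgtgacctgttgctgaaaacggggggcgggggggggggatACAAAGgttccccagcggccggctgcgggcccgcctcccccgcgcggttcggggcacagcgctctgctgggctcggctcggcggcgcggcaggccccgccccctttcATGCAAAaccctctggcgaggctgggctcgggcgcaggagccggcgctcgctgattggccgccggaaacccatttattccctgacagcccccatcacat
+3.7 kb (chr3:34653960-34654080): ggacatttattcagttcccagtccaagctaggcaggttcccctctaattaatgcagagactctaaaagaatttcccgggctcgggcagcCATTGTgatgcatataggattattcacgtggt
+16 kb (chr3:34666495-34666615): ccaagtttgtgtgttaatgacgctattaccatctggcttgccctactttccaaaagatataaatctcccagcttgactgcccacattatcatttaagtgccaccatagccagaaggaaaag
+18.2 kb (chr3:34668484-34668604): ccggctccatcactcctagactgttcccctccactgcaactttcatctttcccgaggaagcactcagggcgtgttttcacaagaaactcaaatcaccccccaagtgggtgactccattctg
+94.9 kb (chr3:34745337-34745457): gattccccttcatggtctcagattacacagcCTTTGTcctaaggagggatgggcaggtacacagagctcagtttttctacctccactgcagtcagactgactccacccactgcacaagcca
+107.5 kb (chr3:34757997-34758117): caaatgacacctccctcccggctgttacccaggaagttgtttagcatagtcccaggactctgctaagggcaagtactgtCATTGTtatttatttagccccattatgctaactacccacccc
+110.9 kb (chr3:34761457-34761577): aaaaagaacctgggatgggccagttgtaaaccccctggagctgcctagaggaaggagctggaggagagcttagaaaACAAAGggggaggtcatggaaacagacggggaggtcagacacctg
In the +3.7 kb sequence the SOX letters are followed at once by gatgcatat, a stretch that the searched OCT letters do not match. The RefSeq start used for the promoter lies 410 bp before the GENCODE start from which distances are counted here, and both lie inside or next to the promoter peak, which spans 34648713 to 34650162.

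Depth is unknown, and 1 library stood apart. Peak height is given as the pileup, the number of tags over the summit, and as the relative pileup, which is the pileup divided by the library's median pileup at the 14217 regions open in all 20 libraries. That median ran from 16 to 60 over the libraries, and the 60 belonged to NanogN70 day 3. The same library had a promoter peak, one with its summit within 2 kb of the start, at 7 of 8 T lymphocyte and leukocyte marker genes with a summed relative pileup of 7.23, whereas the other NanogN70 days had 0 or 1 (sums up to 0.565), the Nanog days 0 or 1 (up to 0.214) and MEFs none, while ESCs had 1 to 3 (0.172 to 0.632). Of that list Cd28 was at 0 in every library. The fibroblast list had a promoter peak at all 8 genes in MEFs and at 6 in the ESCs, with sums of 7.77 in MEFs and 1.87 to 2.41 in ESCs, where Col3a1 and Fap were at 0. The ESC list had a peak at 4 of 8 genes in MEFs (sum 1.00) and at 6 or 7 in ESCs (8.00 to 8.45), Pou5f1 being at 0 in all 3 ESC libraries. That 0 comes from the 2 kb limit at least in ESC replicates 1 and 3, where peaks of 7199 and 4624 bp covered the Pou5f1 start with summits 2026 and 3529 bp away, while ESC replicate 2 listed no peak over it. In a bulk library, fewer open cells and less opening per cell cannot be told apart.

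The window was far more open in ESCs than in MEFs. The ESC libraries had 26, 27 and 25 open regions (26.0 ± 1.0, SD, n = 3) and the MEF library had 6. Peaks covered 9040, 9462 and 8799 bp of the window in the ESCs and 1321 bp in MEFs. With 1 MEF library this difference has no test, but the MEF count lay well outside the spread of the ESC counts.

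Of the 46 regions, 23 were ESC-only, meaning that at least 2 ESC libraries had a peak there while MEFs had none, and among all regions of the series 16.5% were of this kind. A further 6 regions were open in 1 ESC library and closed in MEFs (10.8% of all regions). Only 1 region, at +93.2 kb, was MEF-only (a peak in MEFs and none in any ESC library), against 22.2% of all regions, and its MEF pileup was 4, the lowest that library recorded. There were 5 regions open in MEFs and in at least 1 ESC library (11.8% of all regions), and 11 (38.7% of all regions) open in time course libraries alone.

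**Figure D1:**
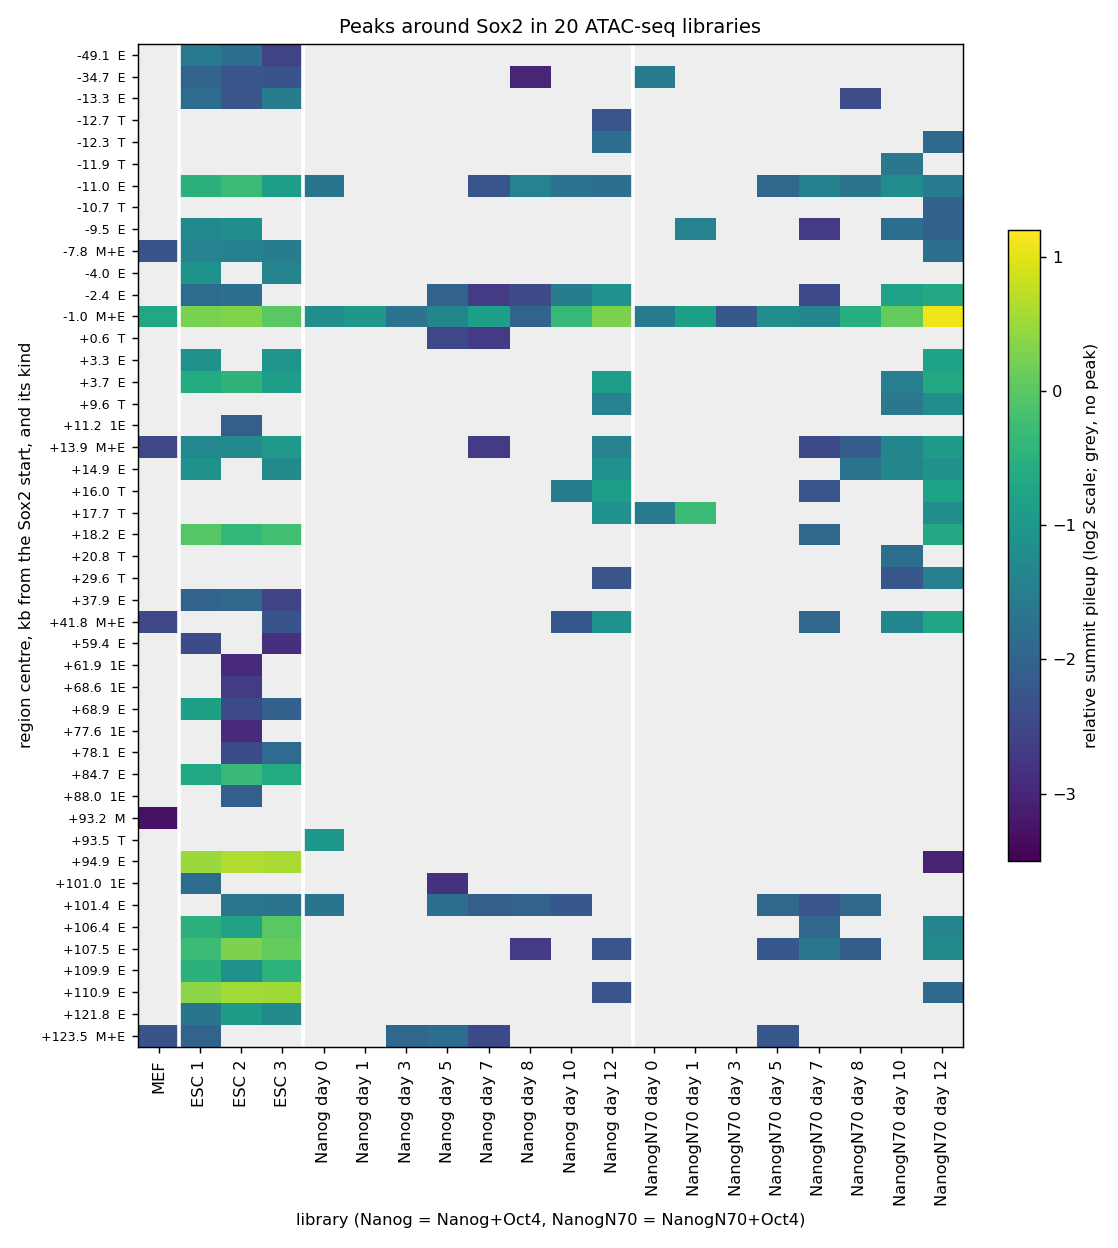
Relative summit pileup of the 46 regions (rows, by distance in kb from the Sox2 start) in the 20 libraries (columns) on a log2 colour scale, with grey for no peak. Letters give the kind of region: E, ESC-only; 1E, open in 1 ESC library; M, MEF-only; M+E, open in MEFs and at least 1 ESC library; T, open in time course libraries alone. The promoter row at -1.0 kb is filled in all 20 libraries, while the bright ESC rows from +84.7 to +121.8 kb are mostly grey in the time course.

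ESC-only regions lay from -49.1 to +121.8 kb. Among the 23 ESC-only regions, 11 lay upstream or within 20 kb downstream of the start and 12 lay farther downstream. The tallest of all 23 was the +94.9 kb region (34745064 to 34745593), with pileups of 45, 59 and 44 in the ESC libraries. Its relative pileup was 1.49 ± 0.0764 (SD, n = 3), a mean relative pileup above that of 99.4% of ESC-only regions in the series. Next was the +110.9 kb region (34761026 to 34761658), with 42, 56 and 42 (relative 1.41 ± 0.0867). The +107.5 kb region (34757622 to 34758212) had 26, 46 and 31 (1.03 ± 0.202), and the +106.4 kb region (34756567 to 34757064) had 23, 22 and 29 (0.766 ± 0.214). The last 3 lie at the distances at which the Sox2 control region is known, and none of the 4 overlaps an annotated gene. The +94.9 kb region fell just short of the limit of 95 kb beyond which regions were counted here as the distal control region.

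The remaining ESC-only regions beyond 95 kb were lower. The +109.9 kb region had ESC pileups of 23, 18 and 21, and the +121.8 kb region, inside the lincRNA Gm38509, had 10, 20 and 12. The +101.4 kb region had a peak in ESC replicates 2 and 3 alone, with 12 and 9. Thus the ESC peaks at +94.9 and +110.9 kb stood above these by more than the spread of the 3 ESC libraries.

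Close to the gene, the promoter peak was the tallest. It had pileups of 38, 47 and 29 in the ESC libraries, a relative pileup of 1.14 ± 0.127 (SD, n = 3), and 24 in MEFs, a relative pileup of 0.615. All 3 ESC libraries were above the MEF library on both scales. The +18.2 kb region had 31, 29 and 25 in ESCs and no peak in MEFs. The -11.0 kb region (34639239 to 34639570) had 23, 31 and 16, and the +3.7 kb region (34653903 to 34654220), where SRR2 is placed, had 21, 28 and 16. The -4.0 kb region, where SRR1 is placed, had 15 and 11 in ESC replicates 1 and 3 and no peak in any other library. The -9.5 kb region had 13 and 17 in ESC replicates 1 and 2, the -2.4 kb region had 9 and 11 in the same replicates, and the +3.3 kb region had 15 and 14 in replicates 1 and 3. All but -4.0 kb of these were also open in at least 1 time course library.

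The promoter peak was low in the first days of both paths and high at the end. In the Nanog path its pileup was 7, 8, 7, 11, 21, 8, 18 and 29 on the sampled days (0, 1, 3 and 5, then 7, 8, 10 and 12), and in the NanogN70 path it was 8, 9, 13, 10, 15, 18, 30 and 87. Relative to the shared regions these were 0.438, 0.5, 0.304, 0.393, 0.553, 0.250, 0.783 and 1.21 with Nanog and 0.333, 0.562, 0.217, 0.435, 0.395, 0.692, 1.07 and 2.12 with NanogN70. All libraries of either path from day 0 to day 7, and Nanog day 8, lay below the MEF level of 0.615. The ESC range of 1.00 to 1.24 was reached by NanogN70 on day 10 and by Nanog on day 12, while NanogN70 on day 12 exceeded it. Beside this, the summed relative pileup of the 8 fibroblast markers was 3.37 to 5.38 up to day 8 and 1.54 on day 12 with Nanog, and 1.96 to 5.96 and 1.61 with NanogN70. That of the 8 ESC markers was 0.833 on Nanog day 12 and 2.56 on NanogN70 day 12, below the 8.00 to 8.45 of the ESC libraries, with Dppa4 and Pou5f1 at 0 in both. Up to day 8 it was 2.14 to 46.7 with Nanog and 2.04 to 25.5 with NanogN70, sums that include Pou5f1, which the vectors carried. On day 10 the ESC marker sum was 1.78 with Nanog, where Pou5f1 had a peak, and 0.857 with NanogN70, beside 1.00 in MEFs. The fibroblast sums of day 10 were 3.7 with Nanog and 1.04 with NanogN70. The part of changes in cell make-up in the promoter level was not tested.

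**Figure D2:**
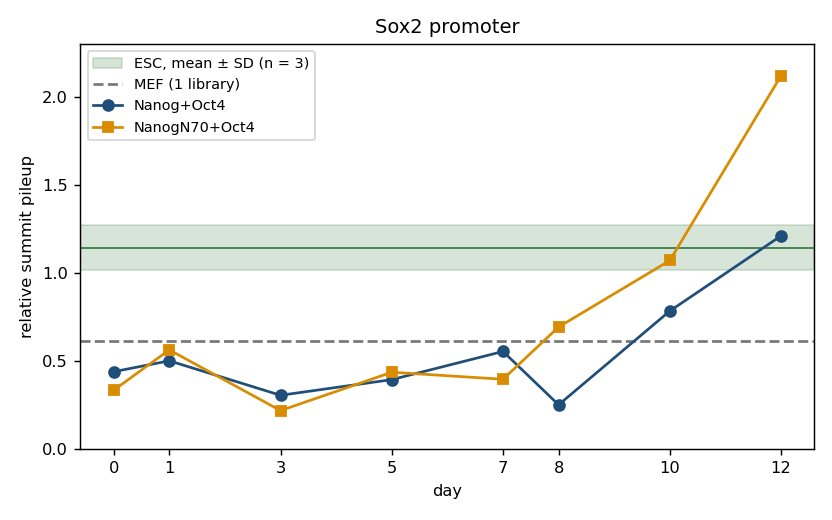
Relative pileup at the Sox2 promoter (highest summit within 2 kb of the start, divided by the library's median at regions open in all 20 libraries) by day, for Nanog+Oct4 (circles) and NanogN70+Oct4 (squares), 1 library per point. The dashed line is the MEF library (0.615) and the band the ESC mean ± SD (1.14 ± 0.127, n = 3). Both lines lie below the MEF level through day 7, and on day 12 they end at 1.21 and 2.12.

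Set in order, the highest relative pileup was that of NanogN70 day 12, followed by ESC replicate 2 (1.24), Nanog day 12 (1.21), ESC replicate 1 (1.19), NanogN70 day 10 (1.07) and ESC replicate 3 (1.00). These 5 libraries after NanogN70 day 12 lay within the range of the ESC replicates or at its edge and were not separated. The next were Nanog day 10 (0.783), NanogN70 day 8 (0.692) and MEF (0.615), and the lowest was NanogN70 day 3 (0.217), the library with the lymphocyte markers. Compared with other promoters the day 12 levels were less unusual. At the 10770 protein-coding promoters that had one in every library, the median Nanog day 12 level was 111% of the ESC mean (quartiles 83.6 to 144) and that of Sox2 was 106%. In NanogN70 day 12 the median was 113% (82.6 to 151), that of Sox2 was 186%, and 12.1% of promoters were at or above Sox2.

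Averaged over the 8 days the promoter did not separate the paths. The mean log2 relative pileup was -1.02 with Nanog and -0.81 with NanogN70, a difference of 0.21, with NanogN70 higher on 5 of 8 days (exact permutation test over the signs of the daily differences, two-sided, p = 0.438, Benjamini-Hochberg adjusted p = 0.729 over 5 tests). Days follow each other within a single time course and are not independent replicates, so even the smallest p this test can give, 0.00781, would describe these libraries only. The difference leaned on day 8, without which it was 0.03, and was 0.31 without day 3. It was 0.34 when pileups were divided by the median of all summits of the library and 0.52 with unscaled pileups, and the exact permutation test was not passed in either (p = 0.141 and 0.0781).

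Regions of the window became detectable late and in unequal numbers. The Nanog libraries had 4, 1, 2, 6, 7, 6, 6 and 15 open regions on the 8 days and the NanogN70 libraries 3, 3, 1, 5, 11, 7, 12 and 21. Both paths thus had their lowest count by day 3 and their highest on day 12, and neither reached the 25 to 27 of the ESC libraries. The mean was 5.88 with Nanog and 7.88 with NanogN70, and NanogN70 was higher on 5 days and lower on 3. This difference of 2.0 regions was not separated from 0 by the exact permutation test (p = 0.156, adjusted p = 0.391), and it was 1.25 with equal numbers of top-scoring peaks in each library.

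For the ESC-only regions alone the counts were 2, 0, 0, 2, 3, 5, 3 and 6 with Nanog and 1, 1, 0, 3, 7, 5, 5 and 11 with NanogN70, beside 21, 19 and 21 in the ESC libraries. NanogN70 was higher on 5 days, lower on 1 and equal on 2, with means of 4.12 and 2.62 (exact permutation test, p = 0.125, adjusted p = 0.391). Day 3 had no open ESC-only region in either path, and the difference of 1.50 was 1.71 without it and 1.00 when day 12 was left out. It was 0.875 without ESC replicate 1, 0.875 with equal numbers of top-scoring peaks in each library and 0.625 with a minimum peak score of 100. Over all ESC-only regions of the series, the share open ran from 1.57% to 9.08% over the Nanog days and from 3.56% to 15.4% over the NanogN70 days, and was higher with NanogN70 on each of the 8 days.

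**Figure D3:**
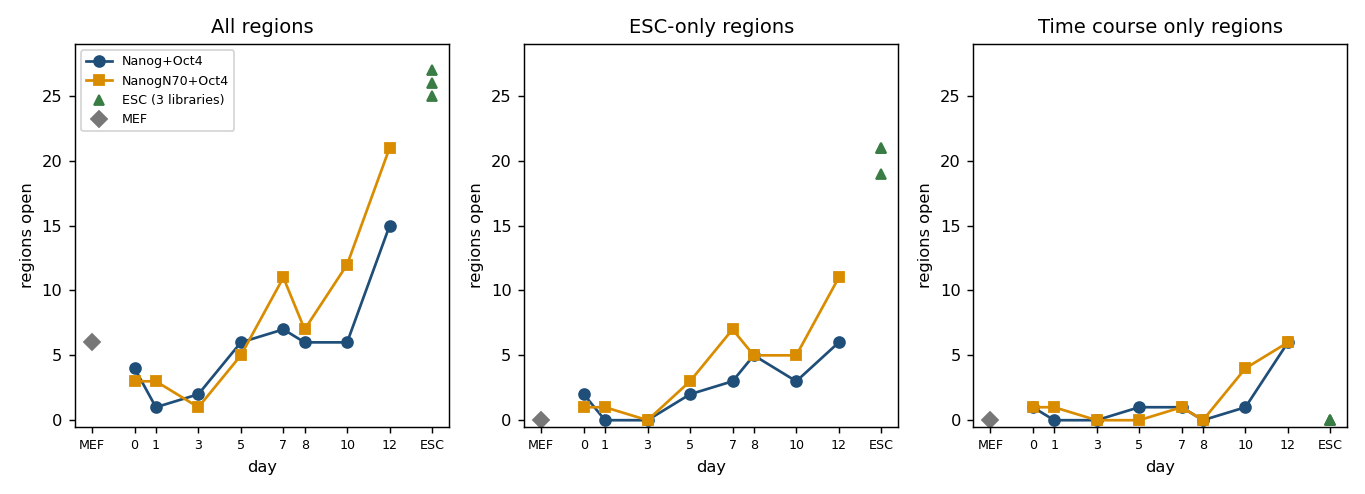
Number of open regions per library by day for all 46 regions, the 23 ESC-only regions and the 11 regions open in time course libraries alone, with Nanog+Oct4 as circles, NanogN70+Oct4 as squares, the 3 ESC libraries as triangles and the MEF library as a diamond. On day 12 the paths had 15 and 21 regions in all, 6 and 11 ESC-only regions, and 6 each of the regions absent from MEFs and ESCs.

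Every ESC-only region open on a Nanog day was also open on a NanogN70 day. Of the 23 ESC-only regions, 14 were open on at least 1 NanogN70 day (30.8% of all ESC-only regions in the series were), 8 on at least 1 Nanog day (17.3%). That left 6 open with NanogN70 alone (16.6%), none with Nanog alone (3.06%) and 9 open in no time course library (66.1%). On day 12 alone 11 of 23 were open with NanogN70, 47.8% with an exact (Clopper-Pearson) 95% interval of 26.8 to 69.4 against 14.2% in the series, and 6 of 23 with Nanog, 26.1% (10.2 to 48.4) against 5.87%. The intervals cover counting error only, and neighbouring regions are not independent. All 6 were also open in the NanogN70 library. Counting every kind of region, 14 were open in both day 12 libraries, 7 in that of NanogN70 alone and 1 in that of Nanog alone, where in the series 55.4%, 28.7% and 15.9% of the regions open in either library were. Of the 21 open with NanogN70, 10 were not ESC-only (83.8% in the series). Since the ESC peaks of this window include many tall ones, the closer background is the ESC-only regions with a mean ESC pileup of at least 20, of which the window held 9. With NanogN70 on day 12, 7 of these were open (45.6% in the series), with Nanog 4 (13.4%), and 2, at +84.7 and +109.9 kb, were open in no time course library (37.2%).

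The -11.0 kb region was the ESC-only region seen most often, in 5 libraries of each path. With Nanog its pileup was 5 on day 0, 8 on day 7, 12 on day 8, 7 on day 10 and 7 on day 12, and with NanogN70 it was 6, 14, 8, 12 and 14 on days 5, 7, 8, 10 and 12. The relative pileup in these libraries stayed between 0.211 and 0.429, below the lowest ESC value of 0.552. The -2.4 kb region was open with Nanog on days 5, 7, 8, 10 and 12, at 7, 6, 6, 8 and 11, and with NanogN70 on days 7, 10 and 12, at 7, 16 and 26. Its day 12 relative pileups of 0.458 and 0.634 were above the 0.281 and 0.289 of the ESC libraries that had it. The +101.4 kb region was open on days 0, 5, 7, 8 and 10 with Nanog, at 5 to 9, and on days 5, 7 and 8 with NanogN70, at 6 to 8, and in neither path on day 12.

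The +3.7 kb region at SRR2 was a late one. It had no peak through day 8 in either path, then 10 on day 10 and 26 on day 12 with NanogN70, and 13 on day 12 with Nanog. Scaled to the library, day 12 stood at 83.6% of the mean ESC level with Nanog and at 97.8% with NanogN70, both inside the ESC range of 0.552 to 0.737 or just short of it (0.542 and 0.634). Its neighbour at +3.3 kb was open with NanogN70 on day 12 alone, at 24. The +18.2 kb region had a peak with NanogN70 on day 7 (10) and day 12 (26, at 73.3% of the ESC level). It had none with Nanog on any day. At the ESC level its pileup in Nanog day 12 would have been 20.8. That library's lowest pileup was 4, but 9 at +13.9 kb scored only 52.23, with 50 as the lowest peak score. The +14.9 kb region was open on day 12 at 11 with Nanog and 19 with NanogN70, where its relative pileups of 0.458 and 0.463 matched the 0.469 and 0.414 of the 2 ESC libraries with a peak.

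Far downstream, the tallest ESC peaks, at +94.9 and +110.9 kb, were low or absent in every library of both paths. At +110.9 kb the day 12 pileups were 5 with Nanog and 11 with NanogN70, which is 14.8% and 19.0% of the ESC level, and no earlier library of either path had a peak there. At +107.5 kb the Nanog path had 5 on day 8 and 5 on day 12 and the NanogN70 path 5, 12, 6 and 17 on days 5, 7, 8 and 12, so that on day 12 they stood at 20.2% and 40.2%. The +106.4 kb region was open with NanogN70 alone, at 10 on day 7 and 16 on day 12 (51.0%). The +94.9 kb region, the tallest ESC-only peak, appeared in 1 time course library, NanogN70 day 12, with a pileup of 5 (8.17%). No time course library had a peak at +84.7, +109.9 or +121.8 kb. At the ESC level these 3 would have had pileups of 16.6, 15.3 and 10.0 in Nanog day 12. In NanogN70 day 12 they would have had 28.3, 26.2 and 17.1. The lowest pileups recorded were 4 and 5, but the pileup needed to reach the lowest peak score, 50, differed by place. In Nanog day 12 a pileup of 5 at +110.9 kb scored 58.55 and 9 at +13.9 kb scored 52.23. In NanogN70 day 12, 5 at +94.9 kb scored 56.05 and 24 at +3.3 kb scored 50.15.

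On day 12, then, the 11 ESC-only regions from upstream to +20 kb included 7 open with NanogN70 and 4 open with Nanog, and 2 that were open in no time course library. The 12 farther downstream included 4 open with NanogN70, 2 open with Nanog, and 7 never open. Of all ESC-only regions in the series, 14.2% were open in NanogN70 day 12 and 5.87% in Nanog day 12. A further share, 66.1%, was open in no time course library, and 7 of 12 did not exceed it. In the series, ESC-only regions of at least 20 mean ESC pileup that were open in Nanog day 12 stood at a median of 36.2% of the ESC level (quartiles 24.4 to 55.1, 827 regions), and in NanogN70 day 12 at 26.7% (19.7 to 36.6, 2811 regions). The 4 such regions of the window open with Nanog had a median of 31.1%, with +3.7 kb above the upper quartile, -11.0 kb between the quartiles and +107.5 and +110.9 kb below the lower one. The 7 open with NanogN70 had a median of 49.1%, with -11.0, +3.7, +18.2, +106.4 and +107.5 kb above the upper quartile and +94.9 and +110.9 kb below the lower one. Days and paths have 1 library each, so these positions carry no test.

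**Figure D4:**
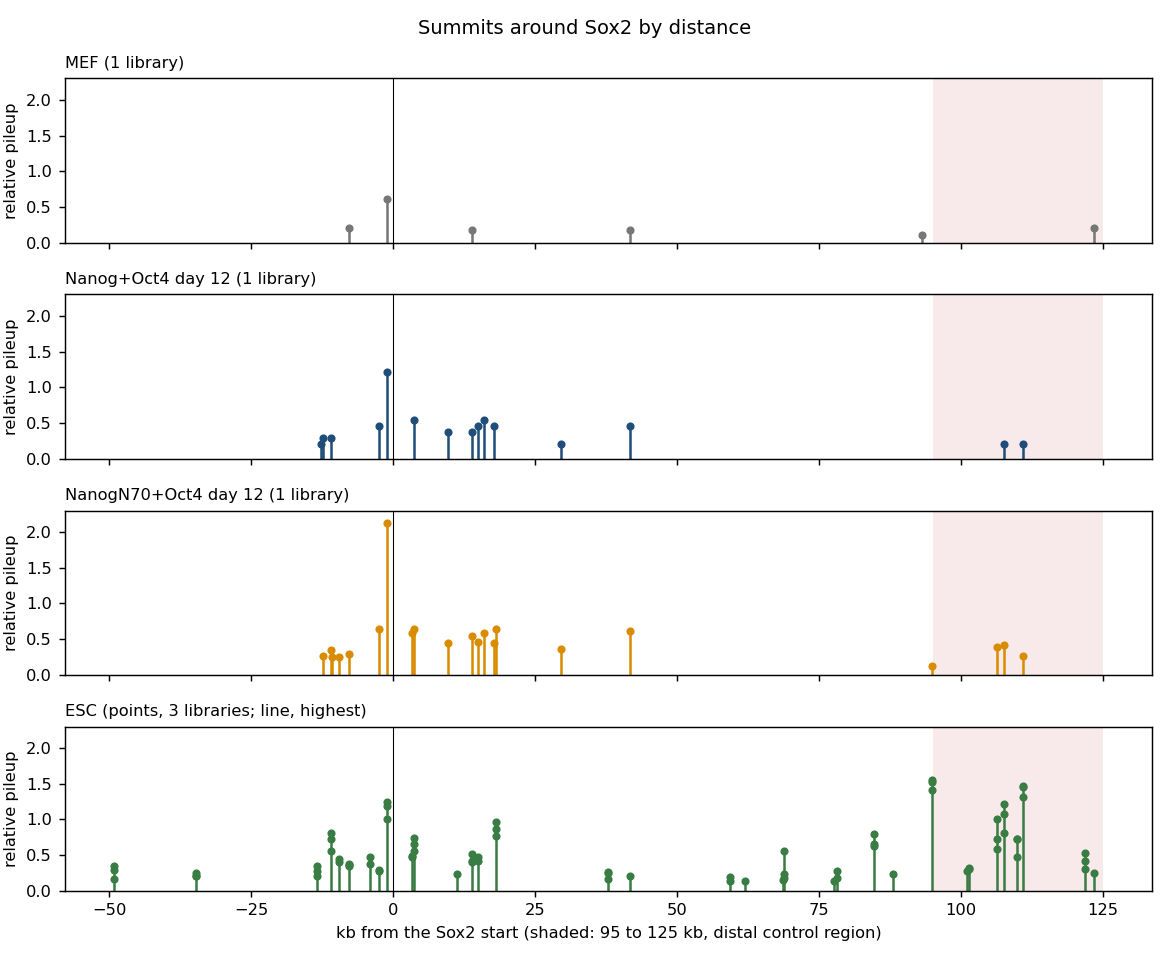
Relative summit pileup of each open region against its distance from the Sox2 start in kb, for MEF, Nanog+Oct4 day 12, NanogN70+Oct4 day 12 and ESC (3 points a region, the line drawn to the highest), with the distal control region shaded. On day 12 the bars at -1.0 and +3.7 kb stand at 83.6% of the ESC mean or more in both paths and that at -11.0 kb at 41.9% and 49.1%, while at +94.9 and +110.9 kb, where ESCs average 1.49 and 1.41, the highest day 12 values are 0.122 and 0.268.

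The distal control region, all of the window beyond 95 kb downstream, held 8 regions. The numbers open were 1, 0, 1, 3, 2, 2, 1 and 2 with Nanog and 0, 0, 0, 3, 3, 2, 0 and 3 with NanogN70, beside 7, 6 and 6 in the ESCs and 1 in MEFs. The means of 1.50 and 1.38 differed by -0.12, with NanogN70 higher on 2 days, lower on 3 and equal on 3 (exact permutation test, p = 1.00, adjusted p = 1.00). The sign of so small a difference turned with the bounds, since between 100 and 120 kb it was 0.12. Part of the early count was the +123.5 kb region, which had a pileup of 8 in MEFs, 8 in ESC replicate 1, 6, 8 and 7 on Nanog days 3, 5 and 7 and 5 on NanogN70 day 5.

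A second set of regions was open late and in neither endpoint. Of the 11 regions open in time course libraries alone, 9 were open on day 10 or 12 (13.9% of all regions of this kind in the series were) and 5 were open in both day 12 libraries (3.27%). These 5 were at -12.3, +9.6, +16, +17.7 and +29.6 kb. The +16 kb region had pileups of 8 and 13 on Nanog days 10 and 12 and of 8 and 24 on NanogN70 days 7 and 12, with day 12 relative pileups of 0.542 and 0.585. The +9.6 kb region had 9 on Nanog day 12 and 9 and 18 on NanogN70 days 10 and 12, and the +29.6 kb region had 5 on Nanog day 12 and 6 and 15 on NanogN70 days 10 and 12. The -12.3 kb region had 7 and 11 in the day 12 libraries alone. All of these but +17.7 kb were absent before day 7. The +17.7 kb region was open on NanogN70 days 0 and 1 as well, at 8 and 13, and on day 12 at 11 with Nanog and 18 with NanogN70. Its relative pileup was highest early, at 0.812 on NanogN70 day 1. On day 12 it was 0.458 with Nanog and 0.439 with NanogN70, so this region was not particular to the late days. Of the 11, 5 were seen in a single library, as were 58.1% in the series.

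The +41.8 kb region followed the same late course without being absent from the endpoints. It had a pileup of 7 in MEFs and 6 in ESC replicate 3, then 5 and 11 on Nanog days 10 and 12 and 10, 11 and 25 on NanogN70 days 7, 10 and 12. Its NanogN70 day 12 relative pileup of 0.610 compared with 0.179 in MEFs and 0.207 in that ESC library. The +13.9 kb region was open in MEFs at 7, in the ESCs at 13, 16 and 15, on day 12 at 9 with Nanog and at 22 with NanogN70, which is 83.7% and 120% of the ESC level. The -7.8 kb region had 8 in MEFs and 12, 14 and 10 in ESCs and was open in 1 time course library, NanogN70 day 12, at 12.

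Since Sox2 is also a gene of neural progenitors, the promoters of 8 neural progenitor genes were read beside these late regions. MEFs had a peak at 6 of the 8, with a summed relative pileup of 2.38 in which Pax6 and Sox1 were at 0, and all 8 had one in each ESC library (5.61 to 6.19). Up to day 8 the Nanog libraries had 2 to 6 (1.06 to 4.04) and the NanogN70 libraries 2 to 6 (1.25 to 4.42). On day 12 both had 6, with sums of 5.75 and 7.12, and Pax6 and Nkx2-2 at 0. Sox1, a close relative of Sox2, stood at 0.925 in ESCs, 1.88 in Nanog day 12 and 2.51 in NanogN70 day 12, and Hes5, a Notch target of neural progenitors, at 0.325, 1.33 and 2.12. The part of such cells in the late regions was not tested.

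The body of the gene was closed almost throughout. The exon, from which peaks of a transduced copy would come had one been used, held no summit on days 0 or 1 of either path, and the libraries that had one were Nanog day 5 and day 7, with pileups of 5 and 6 in the +0.6 kb region. MEFs and ESCs had none.

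Related genes were taken from lists and read at their promoters, within 2 kb of the start. Among 8 genes known as joint targets of OCT4 and SOX2, MEFs had a peak at 5, ESCs at 7 (all but Pou5f1), and the time course libraries of either path at 3 to 7. On day 12 they were 4 with Nanog and 5 with NanogN70. Utf1, a chromatin-bound factor of ESCs, had a relative pileup of 1.53 in ESCs and of 0.208 and 0.317 in the day 12 libraries, and Fbxo15, an F-box gene, had 1.76, 0.333 and 0.317. Zfp42 (Rex1) had 2.02 in ESCs, no peak with Nanog on any day, and 0.561 with NanogN70 on day 12 alone. Fgf4, whose enhancer is a classic OCT4-SOX2 site, had 0.587 in ESCs and no peak on day 12. In this list 3 genes had peaks on more NanogN70 than Nanog days and 4 on fewer, where 12.3% and 6.91% of 21911 protein-coding genes did, and of the 4, Pou5f1 and Nanog were carried by the vectors.

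Of 9 other pluripotency regulators, MEFs had a promoter peak at 6, ESCs at 7 or 8, the Nanog libraries at 5 to 7 and the NanogN70 libraries at 5 to 9. NanogN70 day 12 was the only library with all 9, among them Nr5a2, which had a peak in no ESC library, and Esrrb, which had one in 1 ESC library. These 2 orphan nuclear receptors had peaks on more NanogN70 than Nanog days (1 against 0 and 3 against 0), and none of the 9 on fewer, where 12.3% and 6.91% of protein-coding genes did. Sall4, a zinc finger factor of ESCs, was closed in MEFs, stood at 1.11 in ESCs and stood at 0.875 and 1.07 on day 12 in the Nanog and NanogN70 libraries. Prdm14, also closed in MEFs, stood at 0.306 in ESCs and at 0.167 and 0.171 on day 12. Tfcp2l1 had 1.6 in ESCs and 0.625 and 1.05 on day 12, Klf5 2.39 against 1.17 and 1.24, Klf2 2.33 against 1.08 and 1.83, and Tbx3 1.64 against 1.42 and 0.976, so these 4 were below the ESC mean in both libraries. Klf4 had 1.03 in ESCs and 0.958 and 1.56 on day 12.

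Over the 20 libraries, the promoters whose relative pileup ran most like that of Sox2 were Rassf8 (Spearman 0.865), Sox21 (0.843), Mgat5b (0.835), Hoxb4 (0.826) and Seh1l (0.824), of 10769 genes compared. The points share libraries and scaling, so these values are descriptive. Sox21, a SOXB gene, stood at 0.538 in MEFs, 1.18 ± 0.116 in ESCs (SD, n = 3) and 0.625 and 0.951 in the day 12 libraries, so it lacked the NanogN70 day 12 excess over ESCs that Sox2 had.

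Of the motifs searched, the SOX letters were the most common in the ESC-only regions of the window. They were also the most common in those of the whole series, so this order is not particular to the window. Within 100 bp of the highest summit, 11 of the 23 ESC-only regions held CATTGT or CTTTGT on either strand, beside 30.3% of all ESC-only regions and 26.8% of all regions. In the distal control region 5 of the 6 ESC-only regions did, +101.4 kb being the exception. The OCT letters ATGCAAA were at 1 of 23 (5.92% of all ESC-only regions), and that 1 was +101.4 kb. The joint OCT-SOX consensus was in none of the 46 (0.154% of all regions), which speaks only of these letters in this stretch. The KLF letters GGGNGTGG were at 1 of 23 (14.4%), the ESRRB letters AAGGTCA at 1 (6.09%) and the TEAD letters GGAATG at 1 (13.4%). The AP-1 letters TGANTCA were at 3 of 23 (6.21%), at +68.9, +84.7 and +110.9 kb, and the CTCF consensus at 3 (5.67%), at -9.5, -2.4 and +109.9 kb. The promoter window of RefSeq, 250 bases before and 50 after the start, held 1 OCT and 1 SOX match, both in the stretch printed above, and 4.63% and 28.6% of 32851 promoter windows of the same length held them.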

How the data were processed

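ATAC-seq libraries from MEFs (1), ESCs (3) and 2 reprogramming paths on 8 days each (1 library per day) were used, grouped by sample title. Per the study's methods and the submitters' processing notes, the authors trimmed reads with Trim Galore 0.6.4, aligned them with Bowtie2 2.4.5 to mm10, removed repetitive, mitochondrial and low-quality reads (MAPQ below 30) with SAMtools 1.16.1, and called peaks in each library separately with MACS 1.4.2 without a model (shift size 25), keeping duplicates. No input control is named. The score that the authors deposited for each peak is -10 times the log10 of the MACS p-value, with 50 as the lowest in the files. The deposited summit signal, called the pileup, is the coverage in tags at that base. Neither is scaled to depth, which is unknown, and kept duplicates add to both. Pileups are printed as recorded, and these unscaled values do not compare directly between libraries. The limit of 20 on the mean ESC pileup and the unscaled promoter alternative also used them. Levels were compared mainly as relative pileups, that is, divided by the library's median pileup at the 14217 regions open in all 20 libraries. That median also moves with the share of reads in peaks. A closed region is one without a listed peak and may be open below detection.

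Peaks overlapping by at least 1 bp were merged across the 20 libraries. Distances are from the GENCODE M21 start of Sox2 to the centre of the region, and regions more than 95 kb downstream were taken as the distal control region. Paths were compared over 8 days with a two-sided exact permutation test that flips the sign of each daily difference in all 256 ways, with Benjamini-Hochberg adjustment over 5 tests. The procedures were tested on simulated data. Alternatives were a minimum score of 100, the top 44126 peaks of each library, regions built from summits (added), other bounds of the distal region, other scalings of the promoter, and leaving out each day or ESC library. Motifs were matched as letters on both strands of GRCm38 within 100 bp of the highest summit. Promoter sequence is from RefSeq (GRCm38.p6), in which Sox2 matched by symbol. Peaks on 14 other sequence names were not used for motifs. Regions named were those of the promoter, proximal and distal classes open in at least 2 ESC libraries or at least 8 time course libraries; the others named, among them -12.3, -11.0, +0.6, +9.6, +13.9 to +18.2, +29.6, +41.8, +84.7 and +94.9 kb, were chosen after their values were seen. The window and the gene lists were chosen with earlier results of these data known. Python 3.11.15, NumPy 2.4.6, pandas 2.3.3, SciPy 1.17.1 and Matplotlib 3.10.9 were used.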

Additional observations from a re-analysis of the deposited data

How the results depend on the processing

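None of the 5 tests between the paths passed at an adjusted p of 0.05, and none did under any alternative run, with adjusted p between 0.312 and 0.833 for the window and for the ESC-only regions, 0.781 and 1.00 for the distal control region, 0.26 and 1.00 for the promoter and 0.352 and 1.00 for the MEF-only regions. With 1 library per day and path, a p that misses the threshold does not show that the paths were alike. The difference in the distal control region, -0.125 regions a day, was 0.125 with a minimum peak score of 100 and 0.125 between 100 and 120 kb, and the cause was not tested. Leaving out 1 day at a time gave 1.43 to 2.43 for the window, 1.00 to 1.86 for the ESC-only regions, -0.286 to 0.00 for the distal control region and 0.0305 to 0.311 for the promoter (log2), the lowest of these without day 8. Leaving out 1 ESC library gave 0.875 to 1.50 for the ESC-only regions and -0.25 to 0.125 for the MEF-only regions. With all ESC libraries the MEF-only test is void, since the single such region was open in no time course library. Without ESC replicate 1 the MEF-only means were 0.375 with Nanog and 0.125 with NanogN70. Without replicate 3 they were 0.25 and 0.375. The smallest difference in ESC-only regions, 0.625, came with the minimum score of 100, which leaves fewer peaks, and the window then differed by 1.38. With the same number of top-scoring peaks in each library the differences were 1.25 for the window and 0.875 for the ESC-only regions. Subtracting each library's detection at regions shared by MEFs and ESCs gave 3.93 percentage points for the ESC-only and -2.59 for the MEF-only regions. The unscaled promoter pileup, added after the data were seen, gave 0.516 (log2, exact permutation p = 0.0781), and scaling to the median of all summits gave 0.34. Counting a region as open only where a summit lay in it changed nothing by construction, so regions were also built from summits, which gave 1.88 for the window and 1.38 for the ESC-only regions. The test pairs the libraries of the 2 paths by day, and no pairing by replicate number was run, since the labels give the paths none. A peak is listed by its score, with 50 as the lowest, and the pileup this takes differs by place. In NanogN70 day 12 a pileup of 5 at +94.9 kb scored 56.05, but 24 at +3.3 kb scored 50.15. An open site can therefore go unlisted at a pileup well above 3 to 5, the lowest in the libraries.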
